A study of Mus musculus with 6 samples.

Results

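The 5 genes described here, Usp26, Bglap3, Pla2g1b, Acta2 and Jam2, were picked from 24467 counted genes because both double knockout (DKO) clones lay below the control clone. RNA sequencing of mouse embryonic stem (ES) cells gave 6 libraries, 2 from each of 3 clones. DKO clone 1 and DKO clone 2 had the HP1 genes Cbx5 (HP1 alpha) and Cbx1 (HP1 beta) deleted, and the titles name no other HP1 gene. The control clone is titled F/F for both genes and has the genotype WT in the labels. All 3 clones grew in knockout serum replacement with LIF, the GSK3 inhibitor CHIR99021 (3 µM) and the MEK inhibitor PD184352 (0.8 µM), and none received a further treatment. Each group is a single clone, so genotype and clone cannot be told apart, and nothing says that a clone's libraries are from separate cultures. Since the 5 genes were chosen on DKO against control, their changes in that comparison are given as a description, with no test. The comparison of the 2 DKO clones with each other was not the one that chose them and was tested.

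HP1 proteins read methylated lysine 9 of histone H3 and are part of the packing of silent chromatin. The 5 genes have unrelated products. Usp26 codes for a ubiquitin-specific protease of the X chromosome known for its expression in testis. Bglap3 is the osteocalcin-related member of a cluster with Bglap and Bglap2, the osteocalcin genes of bone. Pla2g1b codes for the pancreatic secreted phospholipase A2, a digestive enzyme of phospholipids. Acta2 codes for the alpha actin of smooth muscle. Jam2 codes for junctional adhesion molecule B, a cell surface protein of the immunoglobulin superfamily that binds its relative JAM-C.

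The libraries held 27876620 and 27822664 counted reads in DKO clone 1, 24628872 and 26772203 in DKO clone 2 and 34641560 and 32327537 in the control. Cbx5 stood at 205 and 194 CPM (counts scaled to a common library total, with TMM factors) in clone 1, 191 and 200 CPM in clone 2 and 813 and 808 CPM in the control. Cbx1 stood at 49.3 and 43.9 CPM in clone 1, 44.9 and 44.5 CPM in clone 2 and 227 and 223 CPM in the control, so both targeted genes were lower in all 4 DKO libraries (log2 change -2.04 and -2.30, adjusted p = 3.9e-08 for each). Which exons were deleted is not given in the sources used here, so the remaining counts may cover exons outside the deleted part. Of 8 ES cell markers all were tested, with none at 0, and their summed level was 3930 and 3804 CPM in clone 1, 3988 and 3821 CPM in clone 2 and 3607 and 3730 CPM in the control. Nanog on chromosome 6 was the single marker that passed in DKO against control (log2 change 0.33, adjusted p = 0.0281), and its log2 change was -0.14 once every chromosome was centred on its median. Leaving out control replicate 1 or 2 gave it an adjusted p of 0.191 or 0.190.

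The sequence before the start site is shown to set the genes' promoters side by side. RefSeq (GRCm38.p6) gave a window for 4 of the 5 genes, and of the 3 windows listed for Bglap3 the one at its outermost start is shown and used. The 250 bases upstream are printed 5′ to 3′ on the gene's strand, with capitals for matches on that strand. Searched on both strands were TATAAA, its variant TATATAA and the CArG box, the site of serum response factor, with at most 1 G or C among its central bases.
Usp26, chrX:51801234-51801483, minus strand: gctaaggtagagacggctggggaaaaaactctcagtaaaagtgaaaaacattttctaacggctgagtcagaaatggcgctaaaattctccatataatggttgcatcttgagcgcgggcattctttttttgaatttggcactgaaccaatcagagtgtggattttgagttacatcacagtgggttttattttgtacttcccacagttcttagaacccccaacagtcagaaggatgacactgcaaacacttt
Pla2g1b, chr5:115465892-115466141, plus strand: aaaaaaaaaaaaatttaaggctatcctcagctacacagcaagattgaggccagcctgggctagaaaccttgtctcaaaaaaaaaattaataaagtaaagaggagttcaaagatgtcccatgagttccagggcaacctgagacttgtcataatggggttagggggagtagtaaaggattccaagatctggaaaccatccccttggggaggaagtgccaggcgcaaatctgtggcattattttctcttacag
Bglap3, chr3:88372742-88372991, minus strand: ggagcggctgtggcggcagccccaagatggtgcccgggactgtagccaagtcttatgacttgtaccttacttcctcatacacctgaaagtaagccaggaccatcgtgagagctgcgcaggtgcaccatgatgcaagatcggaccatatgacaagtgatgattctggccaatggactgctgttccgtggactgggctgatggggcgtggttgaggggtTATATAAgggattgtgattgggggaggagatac
Acta2, chr19:34255374-34255623, minus strand: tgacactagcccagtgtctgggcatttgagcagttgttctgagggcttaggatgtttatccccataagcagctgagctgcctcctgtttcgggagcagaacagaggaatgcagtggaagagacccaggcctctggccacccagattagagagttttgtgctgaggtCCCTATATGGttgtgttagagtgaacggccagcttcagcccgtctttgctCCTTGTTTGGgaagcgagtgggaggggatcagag

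Acta2 had 2 CArG boxes, at positions -84 and -34 from the listed start site, which lies inside the outer end of the annotated gene. At least 1 such box was found in 8.59% of 32851 promoter windows and 2 or more in 0.670%. Such boxes are known in this promoter, and the motifs were chosen with that knowledge. Bglap3 had TATATAA at position -33, a match found on either strand in 3.04% of windows. A match on the other strand overlaps it and takes in the base just before the capitals. TATAAA, found in 12.4% of windows, was in none of the 4. Bglap3 had 8 CG dinucleotides in its window, Usp26 5, Acta2 4 and Pla2g1b 1, against a median of 6 over all windows. No motif searched was found in more than 1 of the 4 windows.

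Usp26 (Entrez 83563, GRCm38 chromosome X, 51752667 to 51801233, minus strand) was at 0.897 and 0.575 CPM in DKO clone 1, 2.41 and 2.77 CPM in DKO clone 2 and 14.5 and 14.9 CPM in the control. Clone 1 was lowest and the control highest, and no 2 groups overlapped. The clones held 5.01% and 17.6% of the control level. In clone 1 the values rest on 25 and 16 reads, and the exact Poisson intervals (95%, counting error only) run from 0.581 to 1.32 CPM and from 0.328 to 0.933 CPM. The log2 change in DKO against control was -3.15 (SE 0.397), which ranks 1 of 14771 tested genes from the lowest log2 change up.

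Bglap3 (Entrez 12095, chromosome 3, 88368616 to 88372741, minus strand) was at 20.8 and 19.8 CPM in clone 1, 12.1 and 10.6 CPM in clone 2 and 59.5 and 49.9 CPM in the control. Here clone 2 was the lowest group, at 20.7% of the control, with clone 1 at 37.1%. The control libraries themselves stood apart by a ratio of 0.840 (replicate 2 over replicate 1), a smaller step than that from either clone to the control. The log2 change was -1.79 (SE 0.227, rank 55).

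Pla2g1b (Entrez 18778, chromosome 5, 115466142 to 115474722, plus strand) was at 1.54 and 1.51 CPM in clone 1, 3.17 and 3.26 CPM in clone 2 and 8.56 and 8.86 CPM in the control. Its order was that of Usp26, with clone 1 at 17.5% and clone 2 at 36.9% of the control. The replicates lay close together in every group, but clone 1 gave 43 and 42 reads and clone 2 gave 79 and 87. In clone 1 the exact Poisson intervals ran from 1.12 to 2.08 CPM and from 1.09 to 2.04 CPM, so this closeness is no measure of precision. The log2 change was -1.88 (SE 0.285, rank 43).

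Acta2 (Entrez 11475, chromosome 19, 34240336 to 34255585, minus strand) was at 2.19 and 2.30 CPM in clone 1, 0.883 and 1.01 CPM in clone 2 and 5.12 and 6.91 CPM in the control. Its order was that of Bglap3, with clone 2 at 15.8% and clone 1 at 37.3% of the control. Clone 2 gave 22 and 27 reads, with exact Poisson intervals from 0.553 to 1.34 CPM and from 0.667 to 1.47 CPM, below those of clone 1 (1.67 to 2.81 CPM and 1.77 to 2.94 CPM). The control libraries differed more than for the other 4 genes, by a ratio of 1.35, and the log2 change was -1.90 (SE 0.334, rank 42).

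Jam2 (Entrez 67374, chromosome 16, 84774123 to 84826380, plus strand) was at 187 and 174 CPM in clone 1, 192 and 183 CPM in clone 2 and 240 and 239 CPM in the control. Both clones lay below the control, but at 75.2% and 78.2% of it, and the libraries of the clones overlapped each other. The log2 change of -0.38 (SE 0.0630) ranks 1802, so Jam2 was not strongly lowered beside the other 4 genes. For scale, 535 genes passed as lower in DKO against control, 3.62% of those tested. All 4 DKO libraries lay below both control libraries for each of the 5 genes, as for 2500 genes or 16.9% of those tested, and nothing is read from this since the rule chose it.

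Among those 535 genes the median log2 change was -0.74, the 25th percentile -1.21 and the 5th percentile -1.94. Usp26 lay below the 5th percentile, Acta2, Pla2g1b and Bglap3 lay between it and the 25th, and Jam2 was shallower than the median. The count rests on both control libraries, with 89 genes lower without control replicate 1 and 104 without control replicate 2. Genes passed as higher in 748 cases (5.06%), and once every chromosome was centred on its median the split was 448 lower and 332 higher. Over these settings and all others tried, the log2 change of Usp26 lay between -3.53 and -2.86, Bglap3 between -1.99 and -1.63, Pla2g1b between -2.08 and -1.72, Acta2 between -2.13 and -1.67 and Jam2 between -0.40 and -0.36.

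**Figure D1:**
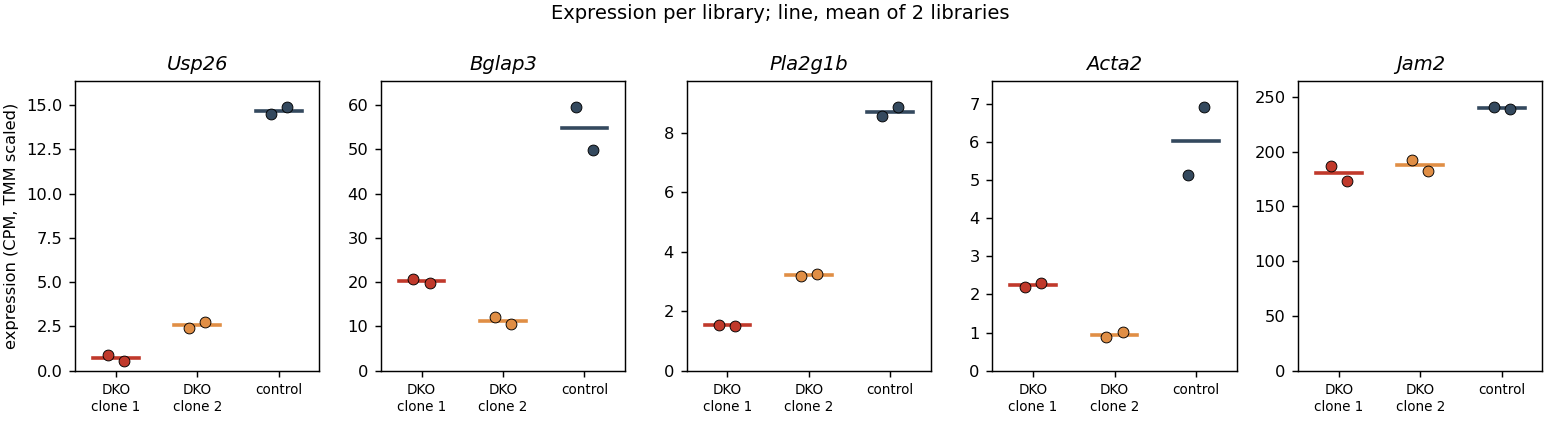
CPM (y axis, linear, from 0) of the 5 genes in each library, with DKO clone 1, DKO clone 2 and control from left to right; points are libraries and lines the mean of 2. Usp26 and Pla2g1b are lowest in clone 1, Bglap3 and Acta2 are lowest in clone 2, and the clones overlap for Jam2 at 174 to 192 CPM.

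The genes were set beside each other per kilobase of gene width, as RPKM (means of 2 libraries). In clone 1 the levels were 29.8 RPKM for Jam2, 7.73 for Bglap3, 2.14 for Pla2g1b, 1.26 for Acta2 and 0.178 for Usp26. In clone 2 they were 31.0 RPKM for Jam2, 4.51 for Pla2g1b, 4.31 for Bglap3, 0.627 for Usp26 and 0.532 for Acta2. In the control they were 39.7 RPKM for Jam2, 20.8 for Bglap3, 12.2 for Pla2g1b, 3.55 for Usp26 and 3.38 for Acta2. Acta2 stood above Usp26 in clone 1, and its mean was below that of Usp26 in clone 2. The order in clone 2 is uncertain, since it rests on 22 and 27 reads of Acta2 and 60 and 74 of Usp26. Bglap3 and Pla2g1b lay close together in clone 2 and the order of their libraries was mixed. These bulk levels cannot tell fewer expressing cells from less RNA per cell.

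The clones were then compared with each other, which asks how far 2 clones with the same deletion differ at these genes. Usp26 was lower in clone 1 than in clone 2, with a log2 difference of -1.81 (SE 0.252, edgeR adjusted p = 0.00128). Pla2g1b was also lower in clone 1 (-1.07, SE 0.203, adjusted p = 0.00825). Bglap3 was higher in clone 1 (0.84, SE 0.118, adjusted p = 0.00133), as was Acta2 (1.24, SE 0.277, adjusted p = 0.0191). Jam2 had a log2 difference of -0.06 (SE 0.0677, adjusted p = 0.703), which does not show that the clones are alike. So 4 of the 5 genes passed, 2 in each direction, against a background of 930 of 14771 tested genes (6.30%), with 2.53% lower and 3.77% higher in clone 1. Among the 460 genes (3.11%) that passed as lower in DKO and in each clone against control, 49 (10.7%) differed between the clones, 25 of them lower (5.43%) and 24 higher (5.22%) in clone 1. In the DKO fit a difference between the clones counts as spread, so genes that differ between them pass less readily. The choice of the 460 may thus hold down the 10.7%, and the 4 of 5 is not read against it. The libraries of the clones do not overlap for 51.2% of tested genes, so the lack of overlap seen for 4 of the 5 is not read as a result. The 930 genes were 373 lower and 557 higher in clone 1. Leaving out 1 library gave 146 and 229 (clone 1 replicate 1), 229 and 317 (clone 1 replicate 2), 104 and 149 (clone 2 replicate 1) and 125 and 156 (clone 2 replicate 2).

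The shift of each chromosome was read beside these differences. Chromosome 3, which holds Bglap3, was raised as a whole by medians of 0.29 and 0.27 log2 in the clone 1 libraries and 0.10 and 0.08 in the clone 2 libraries. With every chromosome centred on its median, Bglap3 differed by 0.65 (adjusted p = 0.00594). Chromosomes X, 5, 19 and 16 were shifted by -0.074 to 0.001 in the DKO libraries, and with chromosomes centred the differences of Usp26, Pla2g1b and Acta2 were -1.78, -1.07 and 1.24 with all 3 calls kept. The call of Pla2g1b ended without clone 2 replicate 2 (adjusted p = 0.0563). The call of Acta2 ended without any single DKO library (log2 difference 1.15 to 1.34, adjusted p = 0.07 to 0.125).

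**Figure D2:**
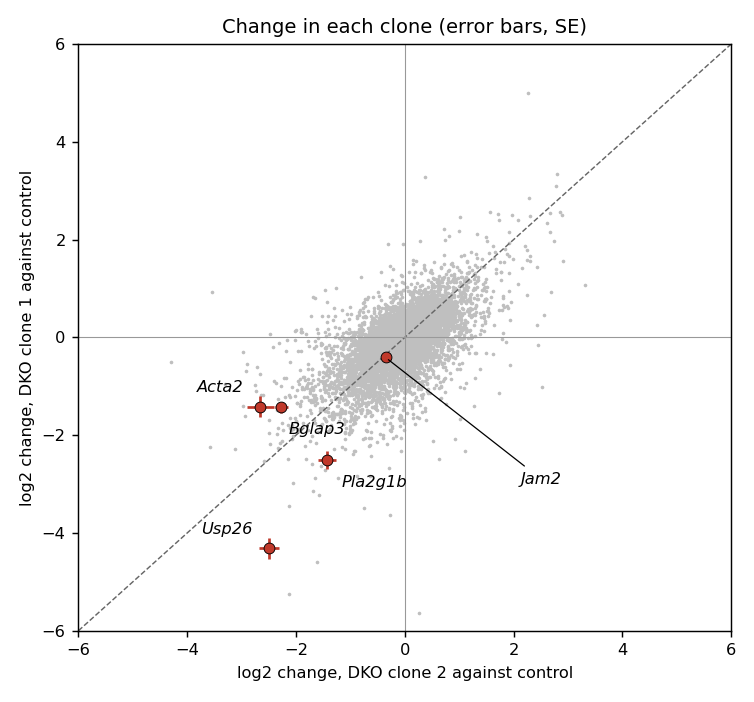
Log2 change against control in DKO clone 1 (y axis) and DKO clone 2 (x axis), with all tested genes in grey except 3 outside the axes, and the 5 genes in red with SE bars; both axes share the 2 control libraries. Usp26 and Pla2g1b lie below the dashed line of equal change, Bglap3 and Acta2 above it and Jam2 on it.

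The nearest tested genes on either side were examined to see whether lower levels extended beyond each gene. Of 20 neighbours 1 passed as lower and 2 as higher in DKO against control, where 3.62% and 5.06% of all tested genes did, so 1 of 20 lower is near the background. For Pla2g1b the 4 neighbours Msi1, Cox6a1, Sirt4 and Pxn had log2 changes between -0.09 and 0.00. For Jam2 Mrpl39, D16Ertd472e, Atp5j and Gabpa lay between -0.05 and 0.02, and none of these 8 passed. Not all are close, with Cox6a1 117 kb from Pla2g1b and D16Ertd472e 6197 kb from Jam2, so such genes say little about the surroundings. Nor did any neighbour of Acta2. By edgeR 0 of the 12 neighbours of these 3 genes passed, with 1 at an unadjusted p under 0.05, and DESeq2 and limma-voom also called 0.

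Stambpl1, a deubiquitinase gene that ends where Acta2 ends on the opposite strand, was at 4.34 and 3.59 CPM in clone 1, 4.94 and 5.88 CPM in clone 2 and 6.98 and 6.19 CPM in the control (log2 change -0.49, adjusted p = 0.158, but 0.0320 for the mean of both clone contrasts). Which strand was counted is not given in the sources used here. Ankrd22, Lipa and Ifit2 had 50 reads or fewer in at least 1 library and did not pass. They lie 74.3, 237 and 295 kb from Acta2.

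Hs6st2, a heparan sulfate sulfotransferase gene 71.0 kb from Usp26, was at 3.16 and 2.26 CPM in clone 1, 0.682 and 0.899 CPM in clone 2 and 5.50 and 5.20 CPM in the control. It fell in DKO (log2 change -1.60, adjusted p = 0.0480) but was lowest in clone 2, the opposite of Usp26 (clone 1 minus clone 2 1.77, adjusted p = 0.00320). The fall was not called without control replicate 1 or 2 (adjusted p of 0.263 and 0.229), clone 1 replicate 2 (0.0572) or clone 2 replicate 1 or 2 (0.0546 and 0.0701), nor in DESeq2 (0.147) or with chromosomes centred (0.0739). Gpc3, a glypican gene 471 kb away on the other side, was at 13.8 and 9.52 CPM in clone 1, 23.0 and 17.8 CPM in clone 2 and 9.14 and 8.30 CPM in the control (log2 change 0.87, adjusted p = 0.0865, but 0.0120 without clone 1 replicate 2, 0.0263 without the filter on low counts and 0.00243 for the mean of both clone contrasts). Mbnl3 and Gpc4, 547 and 250 kb from Usp26, did not pass.

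Around Bglap3 the flanking genes Smg5 and Pmf1 rose in DKO. Smg5, of nonsense-mediated decay, was at 326 and 332 CPM in clone 1, 271 and 272 CPM in clone 2 and 229 and 219 CPM in the control (log2 change 0.42, adjusted p = 0.0218). Pmf1, of the kinetochore, was at 60.1 and 57.2 CPM in clone 1, 49.3 and 50.7 CPM in clone 2 and 36.0 and 40.1 CPM in the control (0.51, adjusted p = 0.0118). Chromosome 3 as a whole was shifted upward in the DKO libraries, and with chromosomes centred Smg5 had a log2 change of 0.23 (adjusted p = 0.0578) and Pmf1 0.32 (adjusted p = 0.0461). Leaving out control replicate 1 gave Smg5 an adjusted p of 0.147 and Pmf1 one of 0.157, and leaving out control replicate 2 gave 0.199 and 0.069. The osteocalcin gene Bglap2, 5.00 kb from Bglap3, had 4 and 12 reads in clone 1, 3 and 5 in clone 2 and 16 and 29 in the control (log2 change -1.59, adjusted p = 0.107, but 0.0468 for the mean of both clone contrasts and 0.0442 without clone 1 replicate 2). The osteocalcin gene Bglap had 3 and 4 reads in clone 1, 1 in each clone 2 library and 12 and 19 in the control, and did not pass the filter on low counts. Of the 2720 stretches of 50 bases in Bglap3 transcripts (GENCODE M21), 11.5% also occur in transcripts of other genes, Bglap2 and Bglap among them, so reads of these 3 genes may be shared. For Acta2 that share was 0.326%, and it was 0 for Usp26, Pla2g1b and Jam2.

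**Figure D3:**
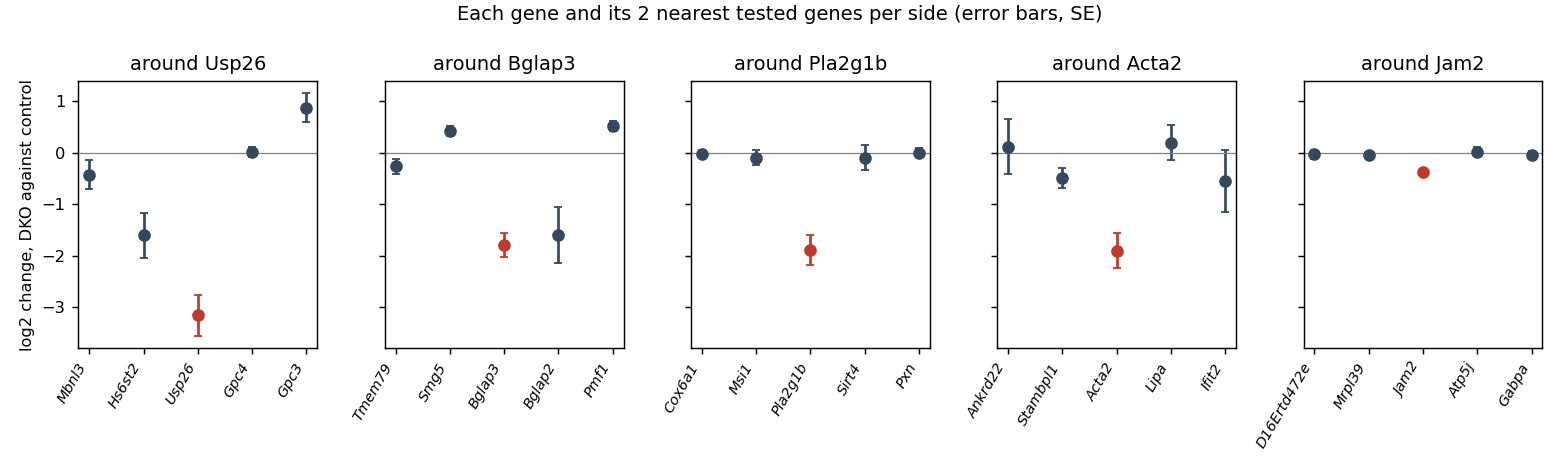
Log2 change in DKO against control (y axis) with SE bars for each of the 5 genes (red) and its 2 nearest tested genes per side (dark), in the order of the chromosome. No neighbour of Pla2g1b, Acta2 or Jam2 passed. Hs6st2 beside Usp26 and Bglap2 beside Bglap3 lie near -1.6, but Bglap2 did not pass and the call of Hs6st2 ended under several alternatives. Smg5 and Pmf1 beside Bglap3 passed as higher.

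Related genes were taken from lists chosen with earlier results of these data known, and the 5 genes themselves were left out of the counts. All 14771 tested genes had a median log2 change of 0.00. Of 48 other Usp deubiquitinases 42 did not pass, 4 fell and 2 rose. The median was -0.05, and the background was 3.62% lower and 5.06% higher. Usp47 (log2 change -0.47, adjusted p = 0.00455) and Usp44 (-0.74, adjusted p = 0.00780) fell, as did Usp25 (-0.43, adjusted p = 0.0455) and Usp31 (-0.33, adjusted p = 0.0279), which are named after their values were seen, while Usp5 (0.60, adjusted p = 0.00138) and Usp39 (0.35, adjusted p = 0.0126) rose. Usp5 and Usp39 lie on chromosome 6, which was shifted by 0.43 to 0.51 log2 in the DKO libraries, and with chromosomes centred they had 0.12 and -0.12 and did not pass. Usp29, a close relative of Usp26, had 4.99 CPM in both clone 1 libraries, 4.82 and 4.91 CPM in clone 2 and 5.18 and 5.54 CPM in the control (adjusted p = 0.670). The calls of Usp47, Usp44 and Usp39 ended when control replicate 1 (adjusted p = 0.0685, 0.0887 and 0.168) or control replicate 2 (0.0643, 0.0923 and 0.0558) was left out.

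Among 17 tested X-linked germ cell genes, which share chromosome and tissue with Usp26, 12 did not pass, 3 fell and 2 rose, and the median was -0.84. Over all tested genes 3.62% passed as lower and 5.06% as higher, and the same background stands beside each list that follows. The nuclear export factor genes Nxf3 (log2 change -1.48, adjusted p = 0.00487) and Nxf2 (-1.63, adjusted p = 0.0155) fell, and so did Taf7l, a testis form of a TFIID subunit (-1.41, adjusted p = 0.00627). The ferritin-like genes Fthl17c (2.60, adjusted p = 0.00673) and Fthl17f (1.14, adjusted p = 0.0305, named after its value was seen) rose. Fthl17c had 43 and 21 reads in clone 1, 33 and 32 in clone 2 and 8 and 5 in the control, and it has near-identical copies among which reads may be split. Leaving out control replicate 1 gave an adjusted p of 0.0983 for Nxf3, 0.144 for Nxf2 and 0.0701 for Fthl17c. Leaving out control replicate 2 gave 0.105 for Nxf2, 0.127 for Taf7l and 0.0923 for Fthl17c.

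The osteocalcin and bone matrix list had 9 other tested genes, of which none fell and 1 rose, Ggcx, the carboxylase that modifies osteocalcin (log2 change 0.47, adjusted p = 0.0462). Ggcx lies on chromosome 6, its log2 change was 0.00 with chromosomes centred, and its call ended without 5 of the 6 libraries (adjusted p = 0.07 to 0.324). By edgeR 0 of the 9 fell, with 1 lower at an unadjusted p under 0.05 and 0 called lower by DESeq2 or limma-voom, and the list's median was 0.10. Of 12 other phospholipase A2 genes 1 fell, Pla2g7, the plasma form that cleaves platelet-activating factor, and 11 did not pass (median -0.14). Pla2g7 was at 0.897 and 0.718 CPM in clone 1, 0.963 and 1.16 CPM in clone 2 and 4.25 and 3.31 CPM in the control (log2 change -2.01, adjusted p = 0.00128), and no alternative tried ended this call.

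Of the other actins, cardiac Actc1 passed as lower on few reads, 1 and 2 in clone 1, 4 and 4 in clone 2 and 19 and 15 in the control (adjusted p = 0.0336). Its call ended without either clone 1 library or either control library (adjusted p = 0.0654 to 0.225), and DESeq2 gave it no adjusted p. Cytoplasmic Actg1 passed as higher (log2 change 0.39, adjusted p = 0.0481), and its call ended without any library but clone 2 replicate 2 (adjusted p = 0.0596 to 0.388). Skeletal Acta1 did not pass (-0.86, adjusted p = 0.177), and intestinal Actg2, with at most 10 reads in a library, did not pass the filter. Of 14 other smooth muscle genes 1 fell, Tpm1, a tropomyosin (-0.51, adjusted p = 0.00694, or 0.0533 and 0.121 when control replicate 1 and 2 were left out), and 13 did not pass (median -0.06). Tagln, the actin-binding transgelin, was at 13.6 and 15.5 CPM in clone 1, 7.87 and 7.16 CPM in clone 2 and 19.4 and 22.8 CPM in the control. It had the same order of groups as Acta2, differed between the clones (0.95, adjusted p = 0.00153) and in DKO against control had -0.93 (adjusted p = 0.0559, but 0.0446 and 0.0177 without clone 1 replicate 1 and 2). Myl9, a myosin light chain, had -1.01 in DKO (adjusted p = 0.0564, but 0.0295 or 0.0417 when clone 1 replicate 1 or clone 2 replicate 2 was left out) and 0.75 between the clones (adjusted p = 0.114). In DESeq2 Myl9 passed as lower (adjusted p = 0.00658). Tagln and Myl9 both passed as lower in DKO without the filter on low counts (adjusted p = 0.0102 and 0.0138), in limma-voom (0.0294 and 0.0428) and for the mean of both clone contrasts (3.8e-05 and 0.00235). The other tested smooth muscle genes did not pass in edgeR and are named after their values were seen. Above 0 were Synpo2 (0.28), Myh11 (0.20), Smtn (0.14), Cald1 (0.12), Vcl (0.12) and Des (0.10). Below 0 were Cnn1 (-0.87), Lmod1 (-0.75), Mylk (-0.29), Tpm2 (-0.08) and Srf (-0.05).

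Jam2 has the relatives F11r (JAM-A) and Jam3 (JAM-C), and neither passed in DKO against control. F11r was at 22.9 and 22.8 CPM in clone 1, 22.4 and 20.1 CPM in clone 2 and 19.4 and 21.0 CPM in the control (log2 change 0.13, adjusted p = 0.489). Jam3, the binding partner of Jam2, was at 20.7 and 22.7 CPM in clone 1, 28.9 and 29.98 CPM in clone 2 and 17.5 and 18.6 CPM in the control (0.50, adjusted p = 0.0701). Both clones lay above the control for Jam3, and it passed as higher without clone 1 replicate 1 (adjusted p = 0.0237), without the filter on low counts (0.0359), in DESeq2 (0.0154) and for the mean of both clone contrasts (0.00160). In the list of JAM and tight junction genes 2 of 20 fell and 18 did not pass in edgeR, while DESeq2 called 3 lower and 2 higher, and the median was -0.08. The background in edgeR was 3.62% lower and 5.06% higher. The 2 were Mpdz, a scaffold of many PDZ domains (-0.89, adjusted p = 0.00430), and occludin, Ocln (-0.52, adjusted p = 0.0193). Leaving out control replicate 1 gave them adjusted p of 0.0785 and 0.0685, and leaving out control replicate 2 gave 0.0538 and 0.233.

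**Figure D4:**
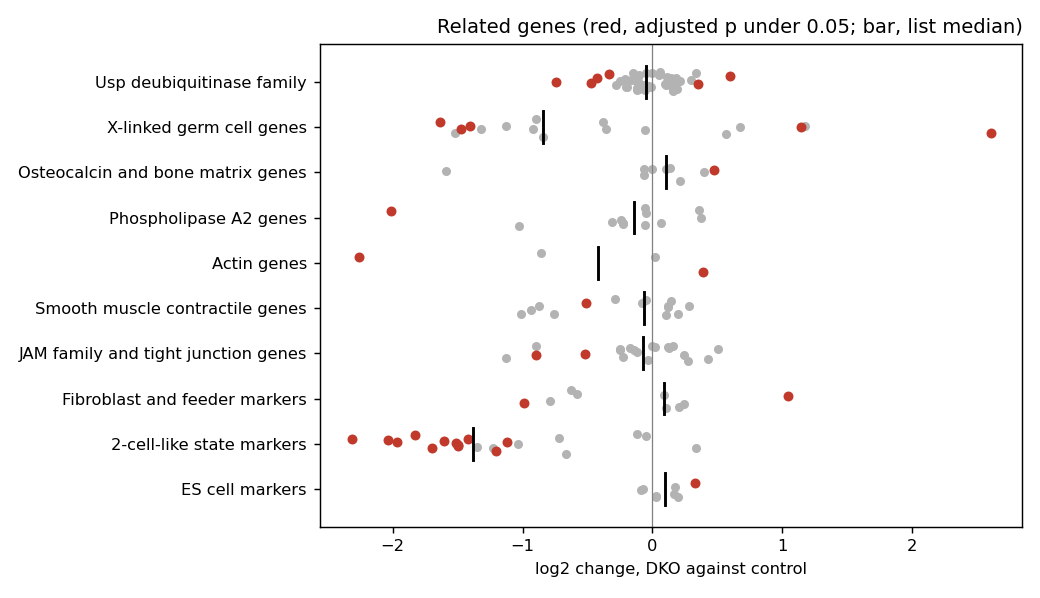
Log2 change in DKO against control (x axis) of each tested gene of 10 lists (rows), without the 5 genes; red points passed at adjusted p under 0.05, grey did not, and black bars are list medians. The 2-cell-like markers lie lowest, with a median of -1.38, and the Usp, phospholipase, smooth muscle and junction lists lie around 0.

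Acta2 is a marker of fibroblasts and smooth muscle, so markers of those cells were read beside it. Of 18 fibroblast and feeder markers 9 were tested, 1 fell (Twist1, log2 change -0.99, adjusted p = 0.0216), 1 rose (Fbln2, 1.05, adjusted p = 0.0323) and 7 did not pass. The summed level of all 18 was 1518 and 1407 CPM in clone 1, 1364 and 1321 CPM in clone 2 and 1271 and 1290 CPM in the control. Twist1, Fbln2, Col5a1 and Pdgfra made up little of it, with control means of 3.53, 1.76, 5.67 and 1.82 CPM. Among the 7 that did not pass, log2 changes were -0.79 for Thy1, -0.62 for Pdgfra and -0.58 for Col5a1. They were 0.24 for Pdgfrb, 0.21 for Vim, 0.10 for Col1a1 and 0.09 for Fn1, so the sum does not stand for each marker. The 9 tested markers ranged from -0.99 to 1.05, and at an unadjusted p under 0.05 there were 3 lower and 1 higher. Their part in the lower level of Acta2 was not tested. Twist2 was at 0 in every library. The summed level of the other smooth muscle genes was 497 and 518 CPM in clone 1, 508 and 488 CPM in clone 2 and 520 and 585 CPM in the control, and Myocd, the coactivator that defines smooth muscle, was at 0 in every library. Leaving out control replicate 1 gave an adjusted p of 0.0685 for Twist1 and 0.259 for Fbln2, leaving out control replicate 2 gave 0.253 for Twist1, and leaving out clone 1 replicate 1 or 2 gave 0.0569 or 0.0649 for Fbln2. With chromosomes centred Fbln2, on chromosome 6, had 0.58 and did not pass.

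The markers of the 2-cell-like state, which some cells of an ES culture enter, were also read. Of 20 tested 12 fell and 8 did not pass, against 3.62% of all genes lower, and edgeR, DESeq2 and limma-voom each called 0 higher, with 0 higher at an unadjusted p under 0.05. Usp17lb (log2 change -2.32, adjusted p = 7.7e-04) and Zscan4a (-1.42, adjusted p = 7.7e-04) had the smallest p. Most of the 12 are near-identical Zscan4 and Usp17l copies that may share reads, so they are not separate counts. Outside these copies only Tcstv1 (-2.04) and Tmem92 (-1.12) fell, named after their values were seen, as are the 8 that did not pass. The log2 changes of those 8 were -1.35 for Tdpoz3, -1.23 for Tcstv3, -1.03 for Sp110 and -0.72 for Arg2. They were -0.67 for Zfp352, -0.12 for Tdpoz1, -0.05 for Tdpoz4 and 0.33 for Tdpoz2. The list's median was -1.38, with -1.15 for clone 1 and -1.73 for clone 2 against the control. The summed level of the list was 65.0 and 71.1 CPM in clone 1, 50.9 and 49.3 CPM in clone 2 and 161 and 159 CPM in the control, with no marker at 0 throughout. Clone 2 was the lowest group, the order that Bglap3 and Acta2 showed and that Usp26 and Pla2g1b did not. The part of this state in the lower levels of the 5 genes was not tested.

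Finally, genes were ranked by how closely their profile over the 6 libraries followed each of the 5, as the root mean square distance in log2 CPM centred over the libraries, among 11577 other genes at 2 CPM or more. These are descriptions over 6 libraries of 3 clones, with no p. Bglap3 was followed most closely by Usp17la (0.191), a deubiquitinase gene of the 2-cell-like state, then by Tll1 (0.205), a metalloprotease gene, and Zscan4c (0.210), a zinc finger gene of that state. Tll1 was at 5.06 and 4.24 CPM in clone 1, 2.33 and 2.92 CPM in clone 2 and 10.8 and 10.6 CPM in the control. Zscan4c was at 11.8 and 10.2 CPM in clone 1, 6.62 and 7.46 CPM in clone 2 and 26.1 and 24.9 CPM in the control. Reads of Usp17la and Zscan4c may be shared with their near-identical copies. For Acta2 the closest genes were Gm20767 (0.197), Bglap3 itself (0.276) and Tll1 (0.287).

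Pla2g1b was followed most closely by Nxf3 (0.241), then by Lefty1 (0.293) and Lefty2 (0.307), which code for secreted inhibitors of Nodal. Nxf3 was at 2.98 and 3.12 CPM in clone 1, 5.30 and 5.73 CPM in clone 2 and 13.0 and 10.7 CPM in the control. Lefty2 was at 59.5 and 55.8 CPM in clone 1, 107 and 97.2 CPM in clone 2 and 199 and 188 CPM in the control. Each of these genes was lowest in clone 1. No gene came as near to Usp26: the closest were Pla2g1b (0.744), then Anxa1 (0.898), an annexin gene, and the deleted Cbx1 (0.899), whose clone difference did not pass (adjusted p = 0.725). For Jam2 the nearest genes were Zfp652 (0.029), Pdp2 (0.033) and Lmbr1l (0.040). These genes were chosen for their likeness, so their changes are given here with no test. Nxf3 was tested above as one of the X-linked germ cell genes and Cbx1 as a targeted gene. Usp17la and Zscan4c were among the 2-cell-like markers counted above as lower. In DKO against control the log2 changes were -1.97 for Usp17la, -1.55 for Tll1, -1.50 for Zscan4c, -1.62 for Gm20767, -1.48 for Nxf3, -1.41 for Lefty1, -1.27 for Lefty2, -2.30 for Anxa1, -0.38 for Zfp652, -0.38 for Pdp2 and -0.32 for Lmbr1l.

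**Figure D5:**
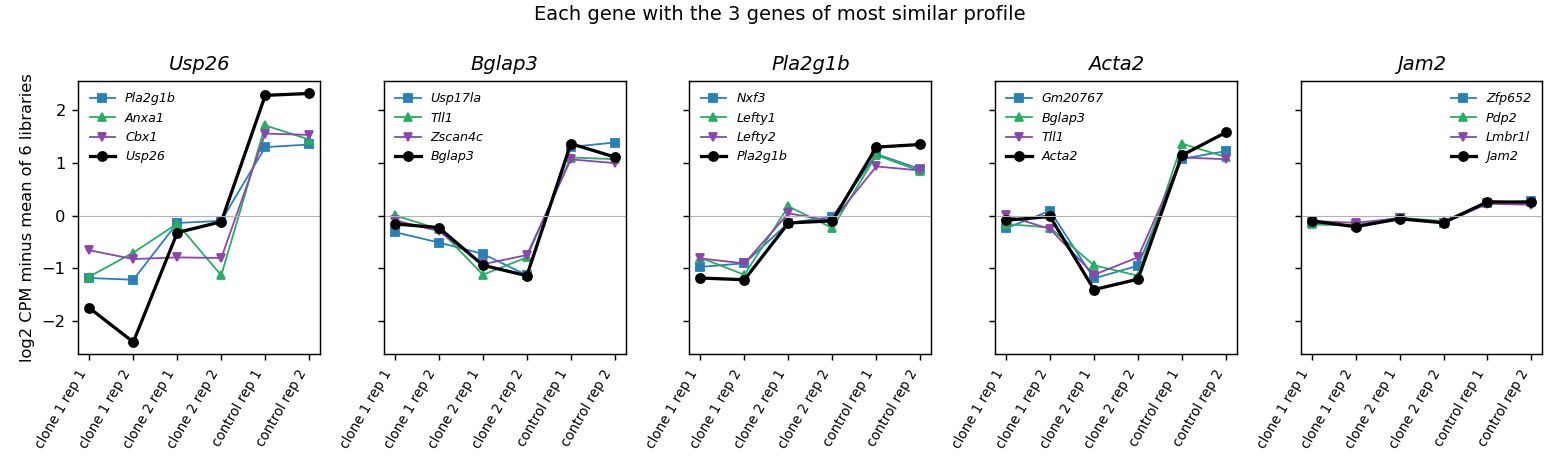
Log2 CPM minus the mean of the 6 libraries (y axis) for each of the 5 genes (black) and the 3 genes of nearest profile (colours), with the libraries of clone 1, clone 2 and control from left to right. Bglap3 and Acta2 dip in clone 2 with their nearest genes, Usp26 and Pla2g1b dip in clone 1, and Jam2 moves little.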

How the data were processed

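RNA of mouse ES cells was sequenced in 6 libraries, 2 from each of 3 clones, made with the ScriptSeq v2 kit per the labels' protocols. Per the submitters' processing notes, reads were aligned with STAR 2.5.0a to mm10 (GRCm38). The authors deposited raw counts of reads, keyed by Entrez ID, beside a width that served as length for RPKM. The counting tool, annotation, strand setting and handling of reads that match several genes were not given in the sources used here. Of 24467 gene IDs 24437 matched the RefSeq gene table of GRCm38.p6, and the other 30 took 0.389 to 1.62% of a library's reads.

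Counts were scaled by TMM (factors 0.992 to 1.01) and filtered with filterByExpr, which left 14771 genes. Changes were tested with the two-sided quasi-likelihood F test of edgeR 4.0.16 in R 4.3.3, with Benjamini-Hochberg adjustment over all tested genes and a threshold of 0.05. DKO against control used genotype as the only term (4 residual degrees of freedom), and the other contrasts used 3 groups (3 residual degrees of freedom), so that the clones share 2 control libraries. In the 3-group contrasts the p-values measure the spread between libraries of a clone, which may be technical. In DKO against control the 4 DKO libraries of 2 clones were taken as replicates, so that spread also holds differences between the clones. For Usp26 the SE was 0.397 in that contrast, 0.213 for clone 1 against control and 0.178 for clone 2 against control. Replicates of a group differed by more than sampling noise, with a chi-square per gene of 11.8 in clone 1, 12.5 in clone 2 and 44.4 in the control. Poisson intervals cover counting error only.

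Alternatives were RLE and library size scaling, no filter, DESeq2 1.42.0, limma-voom (limma 3.58.1), chromosomes centred on their medians, the mean of both clone contrasts, a block for the replicate number, and fits that leave out 1 library each. The text names the 5 genes, the targeted genes, the 2 nearest tested genes per side, the 3 genes of nearest profile, up to 4 genes with the smallest p in each list and close paralogues. The genes, lists and motifs were chosen with earlier results of these data known. RefSeq promoter windows and GENCODE M21 transcripts are of the same build as the counts.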

Additional observations from a re-analysis of the deposited data

Results flagged for a closer look

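These results differed between the 2 DKO clones, that is, the effects of clone 1 and clone 2 against the shared control differed by the edgeR test of the difference (clone 1 minus clone 2, log2). Among the 5 genes they were Usp26 (-1.812), Pla2g1b (-1.074), Bglap3 (0.8417) and Acta2 (1.238). Among their neighbours they were Hs6st2 (1.766, adjusted p = 0.00320), Mbnl3 (-0.8545, adjusted p = 0.0327), Gpc3 (-0.8044, adjusted p = 0.0156) and Smg5 (0.2776, adjusted p = 0.0210). Among related genes they were Tagln (0.953, adjusted p = 0.00153) and Jam3 (-0.4402, adjusted p = 0.0193).

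The differences of Usp26, Bglap3, Hs6st2 and Tagln were called under every alternative run. The difference of Smg5, on chromosome 3, was 0.09 with chromosomes centred (adjusted p = 0.509) and lost its call without any single DKO library (adjusted p = 0.0604 to 0.151). The call of Mbnl3 ended without any single DKO library (adjusted p = 0.093 to 0.158) and in DESeq2 (0.059). The call of Gpc3 ended without clone 1 replicate 2 (adjusted p = 0.0892) or clone 2 replicate 1 (0.154). The call of Jam3 ended without clone 1 replicate 1 (adjusted p = 0.138) or clone 2 replicate 1 or 2 (0.096 and 0.153).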

How the results depend on the processing

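The clone differences of the 5 genes kept their direction under every alternative run. Without one library each, they ranged from -2.17 to -1.53 for Usp26, -1.09 to -1.05 for Pla2g1b, 0.75 to 0.94 for Bglap3, 1.15 to 1.34 for Acta2 and -0.11 to -0.003 for Jam2. Counts of genes without one library ranged from 89 to 474 lower and 154 to 711 higher in DKO, 104 to 377 lower and 149 to 542 higher in clone 1 against clone 2, 489 to 868 lower and 795 to 1195 higher in clone 1 against control, and 460 to 1094 lower and 649 to 1204 higher in clone 2 against control. The mean of both clone contrasts called 1249 genes lower and 1379 higher in DKO. With chromosomes centred, 332 genes were higher in DKO, 731 in clone 1 and 765 in clone 2 against control, and the signs of Usp39 (-0.12) and Nanog (-0.14) turned. Without the filter, 644 genes were lower in clone 1 than in clone 2. The cause was not tested. Of 27 other named genes called in DKO, 18 lost the call without control replicate 1 and 17 without control replicate 2, while RLE and library size scaling changed no call. Replicate numbers did not pair the samples (correlations of deviations 0.028, -0.083 and 0.026), and with a replicate block the differences were -1.81 for Usp26, 0.84 for Bglap3, -1.07 for Pla2g1b, 1.25 for Acta2 and -0.06 for Jam2, with the same calls for these 5. The block ended the DKO calls of Hs6st2 (adjusted p = 0.0868), Ggcx (0.0851), Actc1 (0.0643) and Actg1 (0.0723) among the 27. The values of Usp26 and Acta2 in the DKO clones rest on 16 to 74 reads a library and those of Pla2g1b on 42 to 87, which limits their precision.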
